A study of Mus musculus with 11 samples.

Results

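The report concerns group 2 innate lymphoid cells (ILC2) taken by sorting from lungs of mice 14 days old, and split by whether they carried the fluorescent protein ZsGreen. ZsGreen-positive cells were compared with ZsGreen-negative cells across all genes by bulk RNA sequencing. The members are the 8 lung libraries of the 11 libraries in the study, 5 of ZsGreen-negative and 3 of ZsGreen-positive ILC2, taken by their labels, and the 3 libraries of thymic DN3 cells were left out. Both groups bear the genotype Cd3giCreRosa26stopZsGreen, that is, an iCre recombinase expressed from Cd3g together with a ZsGreen reporter behind a stop cassette at Rosa26, and neither was treated. ZsGreen-negative replicates 1 to 4 and ZsGreen-positive replicates 1 and 2 bear the batch date 2024.09.02, and ZsGreen-negative replicate 5 and ZsGreen-positive replicate 3 the batch date 2025.04.08. No gate, sex or number of animals behind a library is stated in the labels. Every p-value below therefore rests on the variation among libraries alone, part of which may be technical.

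Lung ILC2 are tissue-resident lymphocytes without an antigen receptor on their surface, which respond to alarmins such as IL-33 with the type 2 cytokines IL-5 and IL-13 and depend on the transcription factor GATA3. Cd3g encodes the gamma chain of CD3, the signalling complex that carries the T cell receptor to the surface of T cells. In a fate-mapping mouse of this kind Cre excises a stop cassette once, and the cell and all its descendants then keep the fluorescent mark, whether or not the driver gene is still transcribed. A cell that never transcribed Cd3g and a cell in which Cre did not act both remain unmarked.

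Library depth ran from 4495260 to 17627469 counts, and the 2 libraries of 2025 were the deepest. Replicates differed by more than counting noise, with a chi-square per degree of freedom of 3.39 to 7.80 over the 7 library pairs of 1 group and date and 6.75 to 15.3 over the 6 pairs of 1 group and different dates. Levels are given as CPM, the counts of a gene scaled to the summed counts of all genes tested and to edgeR's TMM factors, with mean ± SD over 5 negative and 3 positive libraries. Differences are log2 fold changes, positive minus negative, with their SE, from edgeR's quasi-likelihood fit with batch date as a term. Adjusted p always means the Benjamini-Hochberg value of that edgeR test over 13771 genes, and a gene is said to have risen or fallen only below 0.05. Because the libraries are bulk samples, a change in the level of a transcript and a change in the share of cells that hold it cannot be told apart.

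Both groups carried the transcripts that define ILC2. Gata3 stood at 949 ± 114 CPM in negative and 859 ± 88.0 CPM in positive libraries, and Il1rl1, the IL-33 receptor chain, at 2952 ± 291 and 2789 ± 371 CPM. Rora, Id2, Il7r, Il2ra and Areg lay in the same range in both groups as well, and none of these 7 transcripts passed the test, against 4.52% of all genes. Their smallest adjusted p by edgeR was 0.274, for Il2ra. Other markers of ILC2 did differ, as described below. Klrg1 (log2 fold change 1.20), Il13 (0.79) and Thy1 (0.31) rose and Icos (-0.95) fell, while Il5 did not pass. Libraries also held transcripts of lung structural cells, and more of them in the positive group. The summed level of 68 epithelial, endothelial and fibroblast markers ran from 702 to 1955 CPM in negative libraries and from 1706 to 3795 CPM in positive libraries, so that negative replicate 3 lay above positive replicate 1. Beside the results, calls are also given from a fit with each library's mean log2(CPM + 1) of these markers, the structural marker score, as an added term.

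Cd3g and Cd3e came first in the ranking of all genes by p. The present level of Cd3g is not independent of the sort, because iCre expressed from Cd3g set the mark that split the cells. It therefore does not check the labels. The 3 genes Cd3g, Cd3d and Cd3e lie beside each other on mouse chromosome 9 and encode the gamma, delta and epsilon chains of the complex. Their upstream windows are shown because these neighbouring genes rose together and because Cd3g is the gene whose activity sets the mark. Each is the run of 250 bases before the gene's start on its own strand, from RefSeq on the GRCm38.p6 build, an assembly that precedes the GRCm39 build named for the counts. Cd3g occupies chr9:44980432-44980681 on the minus strand, Cd3d chr9:44981536-44981785 on the plus strand and Cd3e chr9:45009612-45009861 on the minus strand. Capitals mark matches to the E-box CANNTG, the letters bound by E proteins.
Cd3g: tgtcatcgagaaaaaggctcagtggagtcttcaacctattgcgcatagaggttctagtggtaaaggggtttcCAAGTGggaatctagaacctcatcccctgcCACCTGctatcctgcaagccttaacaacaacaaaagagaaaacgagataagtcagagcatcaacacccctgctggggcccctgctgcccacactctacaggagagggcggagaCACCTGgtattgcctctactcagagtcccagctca
Cd3d: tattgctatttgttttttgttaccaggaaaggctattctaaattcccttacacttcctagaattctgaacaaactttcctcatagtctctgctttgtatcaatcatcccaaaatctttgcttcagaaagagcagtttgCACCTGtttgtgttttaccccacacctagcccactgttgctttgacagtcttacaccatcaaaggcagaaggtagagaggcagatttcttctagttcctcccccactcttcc
Cd3e: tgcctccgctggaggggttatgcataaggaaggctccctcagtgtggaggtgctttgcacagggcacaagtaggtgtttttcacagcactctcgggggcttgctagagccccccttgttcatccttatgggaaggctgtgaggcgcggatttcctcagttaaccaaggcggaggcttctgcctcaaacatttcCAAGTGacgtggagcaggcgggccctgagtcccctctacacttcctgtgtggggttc
The starts of Cd3g and Cd3d, which point away from each other, were 1355 bases apart, and that of Cd3e lay 27825 bases from the start of Cd3d. The E-box, whose letters read alike on both strands, matched 3 times before Cd3g, at positions -178, -148 and -35 from the start, and once each before Cd3d and Cd3e, at -112 and -57. It matched in 66.2% of 32851 windows of the same length. The RUNX letters TGTGGT, searched on both strands, gave 0 matches in all 3 windows and matched in 14.0% of all windows. No match overlapped a match to the other motif.

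Cd3g stood at 35.9, 37.6, 27.8, 31.6 and 31.3 CPM in the negative libraries and at 157, 127 and 142 CPM in the positive libraries. Every positive library thus lay far above every negative library, but the negative cells also held Cd3g transcript. The difference was 2.12 ± 0.10 on the log2 scale (edgeR adjusted p = 9.76e-10), a 4.34-fold higher level. Cd3e stood at 1.91, 1.66, 1.82, 0.617 and 1.45 CPM in negative and 25.04, 17.5 and 21.6 CPM in positive libraries, a log2 fold change of 3.86 ± 0.24 (edgeR adjusted p = 3.26e-08), and no other risen gene changed by more. Cd247, which encodes the zeta chain that carries most of the complex's signalling motifs, rose from 8.74 ± 1.31 to 23.9 ± 2.70 CPM without overlap (log2 fold change 1.45 ± 0.16, edgeR adjusted p = 2.17e-05). Cd3d was counted at 0.638, 0.499, 0.228, 0.617 and 0.553 CPM in negative and 1.62, 2.77 and 2.17 CPM in positive libraries. It rose by 2.01 ± 0.45 (edgeR adjusted p = 0.0128), on 20 counts in all negative and 67 in all positive libraries, and it missed the threshold in the 2024 libraries alone (edgeR adjusted p = 0.0991).

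**Figure D1:**
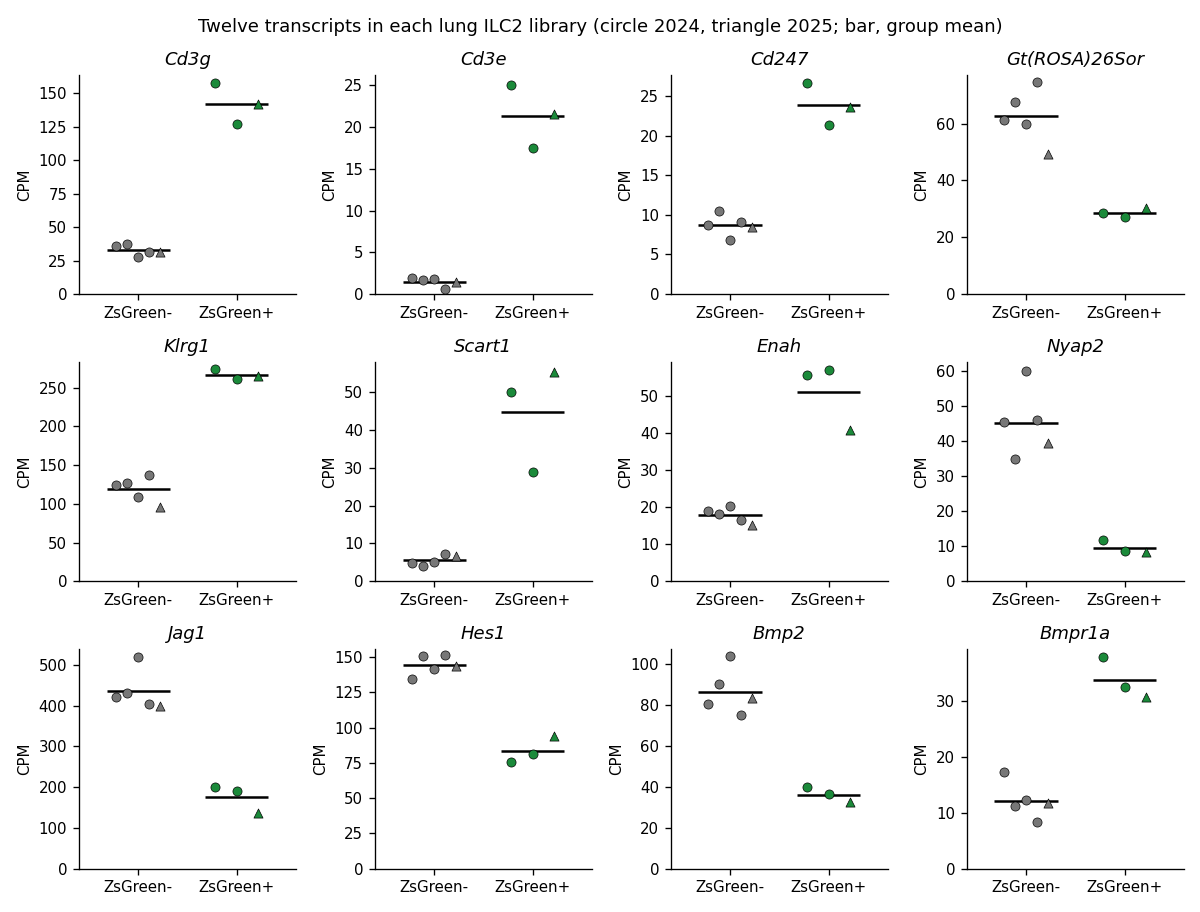
Level in CPM (vertical axes, linear from 0) of 12 transcripts in each of the 8 lung ILC2 libraries, with negative libraries in grey, positive in green, circles for 2024, triangles for 2025 and a bar at each group mean. In none of the 12 panels, chosen from called genes, did the groups overlap: the negative Cd3g points lie between 27.8 and 37.6 CPM and the positive points between 127 and 157 CPM. Of all genes tested, 5.34% were higher and 4.81% lower in the positive group without overlap.

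The transcript of the reporter locus itself fell. Gt(ROSA)26Sor, the noncoding transcript of the Rosa26 locus into which stop cassettes of this kind are inserted, stood at 61.1, 67.7, 59.7, 74.8 and 49.3 CPM in negative libraries. In positive libraries it stood at 28.4, 27.0 and 30.4 CPM, and the groups did not overlap. The log2 fold change was -1.07 ± 0.12 (edgeR adjusted p = 3.62e-05), a 2.10-fold lower level, with -1.25 between the groups in 2024 and -0.69 in 2025. None of 4 neighbours of the 2 engineered loci passed the test: Thumpd3 and Setd5, near Rosa26, differed by -0.26 ± 0.13 and -0.22 ± 0.10, and Kmt2a and Ube4a, near the CD3 genes, by 0.30 ± 0.12 and -0.21 ± 0.09. Whether reads were counted by strand is not stated, so reads of Gt(ROSA)26Sor and of transcripts on the opposite strand there cannot be told apart. The ZsGreen and iCre transcripts themselves were not analysed here.

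Across the transcriptome 323 genes rose (2.35% of the 13771 tested) and 300 fell (2.18%). The risen genes changed by more and were less abundant than the fallen genes. The median risen gene differed by 1.05 on the log2 scale and reached 17.2 CPM in the positive libraries, while the median fallen gene differed by -0.58 and stood at 54.1 CPM in the negative libraries. Of the risen genes 168 changed by at least 1 on the log2 scale, and of the fallen genes 64 did. The groups did not overlap for 282 of the 323 risen and 245 of the 300 fallen genes, against 5.34% and 4.81% of all genes tested. The counts fell by more than 1.5 times when negative replicate 5, positive replicate 2 or positive replicate 3 was left out, to 146, 149 and 148 risen and 140, 172 and 154 fallen genes.

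Both batch dates are represented in each group, and the differences could be read within each date. All 323 risen and all 300 fallen genes had the same sign in 2024 (4 negative, 2 positive libraries) and in 2025 (1 of each), which is a description, since both dates entered the fit. The median difference of the risen genes was 0.91 in 2024 and 1.14 in 2025, and 222 of the 323 differed by more in 2025. For the fallen genes the medians were -0.54 and -0.66, and 170 of 300 differed by more in 2025. Cd3e (3.73 in 2024, 3.81 in 2025), Cd3g (2.09 and 2.18) and Scart1 (2.87 and 3.06) differed by nearly the same amount on both dates. Ccr9, a chemokine receptor known from the gut and thymus, rose by 0.74 ± 0.18 (edgeR adjusted p = 0.0353), but its difference was 0.97 in 2024 and 0.05 in 2025.

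**Figure D2:**
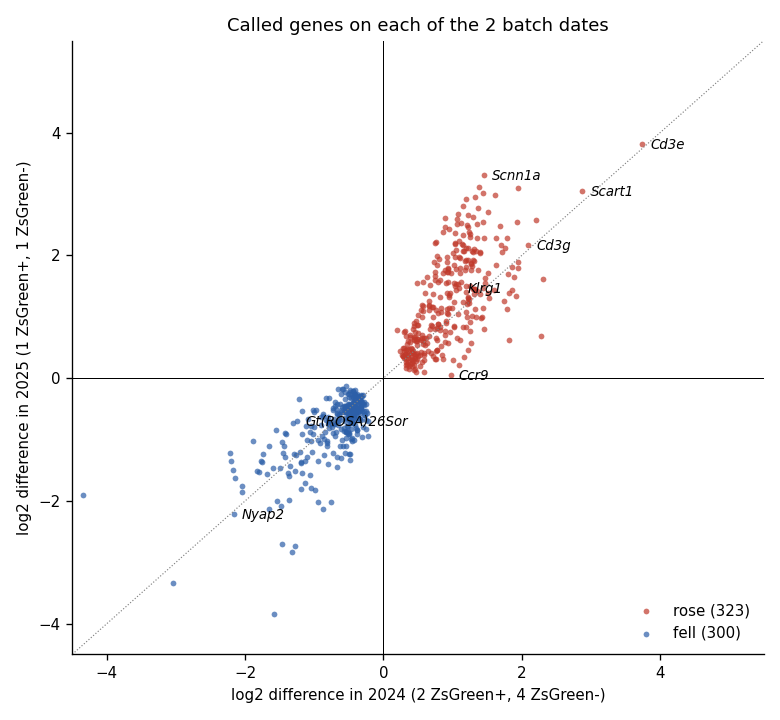
Log2 difference between positive and negative libraries in 2025 (vertical axis, 1 library against 1) and in 2024 (horizontal axis, 2 against 4) for each risen gene in red and fallen gene in blue, with equality as a dotted line. All 623 points lie in the 2 quadrants of equal sign, and 222 of the 323 red points differ by more in 2025.

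Beyond the CD3 chains, genes of T cell receptor signalling moved in part. Of 43 genes of the CD3 complex and proximal signalling, 8 rose and 1 fell (20.9% called, against 4.52% of all genes). The median of the list was 0.06 on the log2 scale, against -0.00058 over all genes. With the structural marker score as a term 4 genes of the list rose and 0 fell. Ubash3a, a phosphatase-like protein that dampens receptor signalling, rose from 57.9 ± 5.54 to 96.4 ± 9.27 CPM, and the adaptor Fyb1 from 119 ± 15.0 to 185 ± 13.4 CPM. The transcription factor Nfatc2, which acts on calcium signals, rose by 0.38 ± 0.09, and the adhesion receptor Cd2 rose by 1.06 ± 0.28 at a low level (2.75 to 5.66 CPM). The Tec family kinase Txk fell from 12.7 ± 1.16 to 7.37 ± 0.065 CPM (log2 fold change -0.77 ± 0.17, edgeR adjusted p = 0.0122). The kinases Lck (0.33 ± 0.11, edgeR adjusted p = 0.0905) and Zap70 (0.25 ± 0.09, adjusted p = 0.122), which act just below CD3, did not pass the test.

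T cell receptor genes were measured by their constant and variable segments, of which 24 of 270 passed the filter on low counts. Of these 4 rose and 0 fell (16.7% called, against 4.52% of all genes). All 4 belong to the gamma and delta loci. Trgc4 stood at 47.1, 44.1, 55.4, 52.1 and 53.1 CPM in negative and 84.2, 99.3 and 86.1 CPM in positive libraries, and rose by 0.83 ± 0.10 (edgeR adjusted p = 4.53e-05). Trdc, the delta constant region, rose from 3.31 ± 0.73 to 9.48 ± 1.53 CPM (1.55 ± 0.24), Trgc2 from 1.33 ± 0.80 to 4.17 ± 1.06 CPM (1.67 ± 0.42) and Trgj4 from 2.84 ± 0.52 to 5.59 ± 1.06 CPM (0.97 ± 0.27). With the structural marker score as a term only Trgc4 rose. Trgc2 and Trgj4 also missed the threshold in the 2024 libraries alone, and Trgj4 missed it with DESeq2. Trgc1, of the same locus, lay at 40.2 ± 10.8 and 29.3 ± 5.04 CPM and did not pass (edgeR adjusted p = 0.249). The gamma constant regions are near copies of each other, so the split of reads among them is uncertain.

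The alpha and beta receptor genes gave no call. Trbc1 (189 and 161 CPM) and Trbc2 (187 and 219 CPM) were abundant in both groups, while Trac, which mature alpha-beta T cells transcribe strongly, stood at only 1.93 ± 0.58 and 2.67 ± 1.65 CPM. Cd4, Cd8a and Cd8b1 did not pass the filter on low counts and had 9, 7 and 2 counts in all negative and 23, 14 and 8 in all positive libraries. The positive libraries together were less deep than the negative ones together. Relative to depth each of these genes was thus higher in the positive group, on few counts and without a test. Of 9 tested genes of the pre-T cell receptor and V(D)J recombination edgeR called 0, against 4.52% of all genes. Their median was -0.12, and 2 had an unadjusted p below 0.05 in edgeR, while DESeq2 called 0 and limma voom 1. No library held a count of the recombinase gene Rag2 or of Ptcra, the pre-T cell receptor alpha chain. Bcl11b, a factor shared by T cells and ILC2, stood at 373 ± 36.1 and 362 ± 21.6 CPM. Of 15 tested markers of alpha-beta T cells 3 rose (Cd3e, Cd3d and Cd40lg) and 1 fell (Lef1), which is 26.7% called, against 4.52% of all genes. The summed level of this list, to which Il7r of ILC2 also belongs, was 1682 to 1851 CPM in negative and 1608 to 1738 CPM in positive libraries. Of 11 tested markers of gamma-delta T cells 4 rose (Scart1, Trgc4, Trdc and Trgc2) and 0 fell, which is 36.4% called, against 4.52% of all genes. The summed level of that list was 426 to 478 CPM in negative and 477 to 536 CPM in positive libraries. The part of other lymphocytes in the differences of receptor genes was not tested.

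Scart1, a scavenger receptor of the CD163 family known from gamma-delta T cells, had the largest change of the 323 risen genes after Cd3e. It stood at 4.95, 4.16, 5.01, 7.09 and 6.57 CPM in negative libraries and at 50.1, 28.9 and 55.3 CPM in positive libraries. The groups lay far apart, and the log2 fold change was 2.95 ± 0.19 (edgeR adjusted p = 7.50e-08), a 7.75-fold higher level. Its relative Scart2 stood at 7.10 ± 1.24 and 13.3 ± 7.20 CPM and did not pass (0.81 ± 0.25, edgeR adjusted p = 0.0835). The other called genes of a list of 15 tested type 17 and ILC3 genes fell. Il17f, a type 17 cytokine gene, fell from 16.3 ± 4.03 to 7.82 ± 1.43 CPM (-0.97 ± 0.21). The neighbouring membrane protein genes Tmem176a and Tmem176b fell by 0.52 ± 0.09 and 0.48 ± 0.09, from 207 ± 18.2 to 144 ± 4.42 CPM and from 198 ± 18.3 to 142 ± 5.42 CPM. Il17a differed by -0.51 ± 0.39 (edgeR adjusted p = 0.637). Of this list 26.7% were called, against 4.52% of all genes, and its median was -0.15.

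Of 43 transcription factors known from ILC2, 1 rose and 6 fell (16.3% called, against 4.52% of all genes), with a median of -0.06. With the marker score as a term 0 rose and 3 fell. Sox4, an HMG-box factor of immature lymphocytes, stood at 39.1, 31.9, 31.0, 28.5 and 27.6 CPM in negative and 10.4, 11.1 and 9.97 CPM in positive libraries (-1.56 ± 0.14, edgeR adjusted p = 1.98e-06). Its level in the 3 positive libraries was both low and even. The retinoid X receptor gene Rxrg fell from 59.0 ± 3.28 to 24.8 ± 2.51 CPM (-1.27 ± 0.10), and Lef1, a partner of beta-catenin, from 31.4 ± 2.70 to 16.9 ± 2.08 CPM (-0.89 ± 0.12). Klf4 fell by 0.66 ± 0.10, the adaptor Lmo4 by 0.67 ± 0.12 and the Ikaros relative Ikzf3 by 0.57 ± 0.12. Irf4, which promotes type 2 cytokine output in lymphocytes, rose instead. It stood at 245, 196, 211, 214 and 175 CPM in negative and 353, 349 and 390 CPM in positive libraries (0.83 ± 0.10, edgeR adjusted p = 4.94e-05). The thymic factor Tox, at 97.2 ± 7.41 and 79.1 ± 9.16 CPM, did not pass (edgeR adjusted p = 0.0904).

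Among 39 surface receptors of ILC2, 5 rose and 2 fell (17.9% called, against 4.52% of all genes), and with the marker score as a term only Klrg1 rose and only Icos fell. Klrg1, an inhibitory lectin-like receptor of mature ILC2 that binds cadherins, stood at 124, 127, 109, 138 and 95.7 CPM in negative and 274, 260 and 265 CPM in positive libraries. The positive values were nearly equal, and the log2 fold change was 1.20 ± 0.09 (edgeR adjusted p = 2.77e-07). The inhibitory receptors Ctla4 (28.0 to 35.8 CPM, 0.44 ± 0.11) and Havcr2 (6.19 to 10.2 CPM, 0.74 ± 0.19), the costimulatory receptor Tnfrsf4 (13.9 to 19.5 CPM, 0.56 ± 0.14) and the surface marker Thy1 (575 to 719 CPM, 0.31 ± 0.08) rose with it. Each of these 4 missed the threshold in the 2024 libraries alone. Icos, the costimulatory receptor that ILC2 use through contact with its ligand, fell from 719, 646, 943, 879 and 760 CPM to 431, 415 and 366 CPM (-0.95 ± 0.12, edgeR adjusted p = 8.35e-05), and Tnfrsf18 fell by 0.35 ± 0.08. Il17rb, the IL-25 receptor chain, lay at 500 ± 66.9 and 666 ± 111 CPM and did not pass (edgeR adjusted p = 0.0774). Clec2i, a C-type lectin of a family whose members are ligands for NKR-P1 receptors, fell from 14.6 ± 3.35 to 4.48 ± 0.755 CPM (-1.71 ± 0.22).

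The type 2 cytokine genes did not move alike. Il4, Il13 and Il5 lie in 1 cluster on mouse chromosome 11, and their upstream windows are shown because these neighbours, known to be regulated jointly, differed in whether they passed the test. The windows are 250 bases before the start on the gene's own strand, from RefSeq on GRCm38.p6. Il4 occupies chr11:53618666-53618915 on the minus strand, Il13 chr11:53634703-53634952 on the minus strand and Il5 chr11:53720544-53720793 on the plus strand. Capitals mark matches on either strand to GGAAA, the core letters bound by NFAT factors, and to GATAA, letters bound by GATA factors.
Il4: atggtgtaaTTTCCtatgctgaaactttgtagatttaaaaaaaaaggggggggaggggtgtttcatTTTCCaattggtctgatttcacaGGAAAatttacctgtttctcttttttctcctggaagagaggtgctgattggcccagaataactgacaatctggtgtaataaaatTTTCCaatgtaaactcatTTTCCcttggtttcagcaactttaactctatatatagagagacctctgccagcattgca
Il13: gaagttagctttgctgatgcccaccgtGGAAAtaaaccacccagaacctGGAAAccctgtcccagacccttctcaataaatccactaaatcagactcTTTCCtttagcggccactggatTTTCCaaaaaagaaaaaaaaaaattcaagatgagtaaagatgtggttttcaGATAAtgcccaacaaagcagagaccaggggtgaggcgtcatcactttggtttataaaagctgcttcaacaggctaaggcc
Il5: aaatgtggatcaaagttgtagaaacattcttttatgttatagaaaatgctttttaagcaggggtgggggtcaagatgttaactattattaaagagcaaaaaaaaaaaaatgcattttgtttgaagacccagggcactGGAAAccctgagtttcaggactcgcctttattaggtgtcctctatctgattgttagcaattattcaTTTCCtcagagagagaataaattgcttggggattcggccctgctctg
The start of Il4 lay 16037 bases from that of Il13, and the start of Il13 lay 86092 bases from that of Il5. GGAAA or its reverse complement TTTCC matched 5 times before Il4, 4 times before Il13 and 2 times before Il5, and in 55.6% of all windows. GATAA matched 1 time, before Il13 at -80, and in 22.6% of all windows, without overlap with a GGAAA match.

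Il4 stood at 10.2, 10.6, 16.2, 14.0 and 9.47 CPM in negative and 31.4, 29.1 and 22.3 CPM in positive libraries, and Il13 at 555, 601, 647, 749 and 428 CPM in negative and 906, 1099 and 963 CPM in positive libraries. Neither gene's groups overlapped. Il4 rose by 1.25 ± 0.15 (edgeR adjusted p = 5.57e-05) and Il13 by 0.79 ± 0.12 (edgeR adjusted p = 0.000766). Il5 stood at 406, 336, 614, 641 and 174 CPM in negative and 376, 525 and 248 CPM in positive libraries, with wide overlap (0.04 ± 0.29, edgeR adjusted p = 0.976). The lowest library of each group for Il5 was that of 2025. Of 36 tested cytokine and effector genes 5 rose and 4 fell (25% called, against 4.52% of all genes), and with the marker score as a term 0 rose and 2 fell. The other risen members were Il6 (7.32 to 14.4 CPM, 1.04 ± 0.20), the chemokine genes Ccl1 (335 to 501 CPM, 0.58 ± 0.09) and Ccl5 (7.27 to 15.2 CPM, 1.07 ± 0.20). Besides Il17f, the fallen members were Bmp2, Cxcl2 (1581 to 1097 CPM, -0.47 ± 0.09) and Calca, which encodes the neuropeptide CGRP (1582 to 1089 CPM, -0.49 ± 0.13). The groups overlapped for Cxcl2 and Calca, and Calca missed the threshold in the 2024 libraries alone. Csf2, at 657 ± 44.9 and 796 ± 13.9 CPM, did not overlap but missed the threshold (edgeR adjusted p = 0.0769), and Tnf, at 193 ± 101 and 403 ± 233 CPM, overlapped.

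Notch signalling genes were measured because Notch receptors, cleaved after binding ligands such as Jag1, act through Rbpj on targets such as Hes1 and Hey1 in early lymphocytes. Of 35 tested members 2 rose and 3 fell (14.3% called, against 4.52% of all genes), with a median of 0.01. The 3 fallen members, and neither risen one, kept their call with the marker score as a term. Jag1 stood at 421, 432, 519, 404 and 399 CPM in negative and 201, 191 and 137 CPM in positive libraries (-1.28 ± 0.10, edgeR adjusted p = 6.03e-07). Hes1 stood at 134, 151, 141, 152 and 144 CPM in negative and 75.8, 81.1 and 94.1 CPM in positive libraries (-0.80 ± 0.09, edgeR adjusted p = 2.30e-05). Hey1 fell from 8.35 ± 2.18 to 2.22 ± 0.83 CPM (-1.88 ± 0.29, edgeR adjusted p = 0.000808). Ligand and both targets were thus lower in every positive library than in every negative library. Rbpj rose from 535 ± 39.6 to 728 ± 47.6 CPM (0.46 ± 0.09), and Psen2, a subunit of the protease that cleaves Notch, by 0.30 ± 0.08. The receptors Notch1 (66.3 ± 9.68 and 79.5 ± 10.3 CPM) and Notch2 (402 ± 33.0 and 434 ± 45.2 CPM) did not pass, with adjusted p of 0.316 and 0.630 by edgeR.

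In the BMP and TGF-beta family, whose ligands signal through paired receptors to Smad proteins, 3 of 33 tested members rose and 3 fell (18.2% called, against 4.52% of all genes), with a median of -0.03. With the marker score as a term only Bmpr1a rose and only Bmp2 fell. The ligand Bmp2 stood at 80.3, 89.9, 103, 74.9 and 83.3 CPM in negative and 39.7, 36.1 and 32.3 CPM in positive libraries (-1.25 ± 0.11, edgeR adjusted p = 1.84e-06). Its type I receptor Bmpr1a moved the other way, from 17.2, 11.1, 12.3, 8.33 and 11.7 CPM to 37.8, 32.5 and 30.8 CPM (1.48 ± 0.17, edgeR adjusted p = 4.53e-05). Neither pair of groups overlapped. Tgfbr3, the coreceptor betaglycan, fell from 17.1 ± 4.66 to 7.33 ± 1.10 CPM (-1.25 ± 0.23). Acvrl1, a type I receptor prominent in endothelium, rose from 5.92 ± 2.16 to 14.7 ± 3.72 CPM (1.40 ± 0.26), and with the structural marker score as a term its adjusted p by edgeR was 0.819. Of the inhibitory Smad genes, Smad6 rose by 0.93 ± 0.24 and Smad7 fell by 0.33 ± 0.09. Both missed the threshold in the 2024 libraries alone, and Smad7 also without a batch term. Bmp7 lay at 157 ± 15.2 and 146 ± 4.39 CPM (edgeR adjusted p = 0.542).

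Among the strongly fallen genes was Nyap2, a phosphoprotein that binds PI3 kinase, with 45.3, 34.8, 60.0, 46.1 and 39.3 CPM in negative and 11.9, 8.65 and 8.36 CPM in positive libraries (-2.18 ± 0.17). Stxbp6, which binds SNARE proteins in exocytosis, fell from 54.1 ± 3.06 to 19.2 ± 2.27 CPM (-1.49 ± 0.11), and Syndig1, a synaptic membrane protein, from 18.6 ± 3.52 to 5.49 ± 0.455 CPM (-1.74 ± 0.19). Kctd12, an auxiliary subunit of the GABA-B receptor, was abundant in negative libraries at 1259 ± 208 CPM and fell to 549 ± 109 CPM (-1.15 ± 0.11). Basp1 and Marcksl1, myristoylated proteins of the membrane cytoskeleton, fell by 0.90 ± 0.10 and 1.01 ± 0.12. The oxytocin receptor Oxtr fell from 5.73 ± 0.67 to 1.74 ± 0.17 CPM (-1.66 ± 0.28). Among 16 tested neuro-immune receptors and neuropeptides 2 fell and 0 rose (12.5% called, against 4.52% of all genes), at a median of -0.32. Calca was among them, but missed the threshold in the 2024 libraries alone and with the marker score as a term. The GDNF receptor Ret lay at 44.1 ± 8.39 and 31.3 ± 7.16 CPM and did not pass (edgeR adjusted p = 0.0906).

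Other strongly fallen genes came from several functions. The protease inhibitor Serpinb2 fell from 29.7 ± 5.57 to 7.49 ± 0.36 CPM (-1.94 ± 0.17), the small GTPase Rab30 from 20.2 ± 5.25 to 4.93 ± 0.99 CPM (-1.88 ± 0.23) and the RNA-binding protein Khdrbs3 from 6.77 ± 1.71 to 1.92 ± 1.04 CPM (-1.90 ± 0.32). Mylip, a ubiquitin ligase that removes the LDL receptor, fell by 0.85 ± 0.09, and the ubiquitin ligase Rnf144b by 1.37 ± 0.16. Cpa3, a carboxypeptidase of mast cells and basophils that ILC2 also transcribe, stood at 204, 204, 223, 214 and 130 CPM in negative and 122, 104 and 84.4 CPM in positive libraries (-0.82 ± 0.09, edgeR adjusted p = 2.30e-05). The negative library of 2025 lay closest to the positive ones. Zdbf2, an imprinted gene, fell by 1.45 ± 0.16, Zc3hav1l by 1.08 ± 0.11, the ephrin receptor Epha2 by 0.89 ± 0.10, the matrix protein Thsd4 by 0.97 ± 0.11 and the factor Cebpb by 0.77 ± 0.09. Acod1, which makes itaconate, fell by 1.72 ± 0.39 at a low level (5.85 to 1.89 CPM).

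Risen genes included regulators of actin and membrane. Of 39 tested actin regulators, annexins and S100 genes 5 rose and 0 fell (12.8% called, against 4.52% of all genes), at a median of 0.25. Enah, which promotes actin filament growth, stood at 18.99, 18.1, 20.3, 16.7 and 15.1 CPM in negative and 55.6, 57.1 and 40.7 CPM in positive libraries (1.56 ± 0.11, edgeR adjusted p = 7.50e-08). Anxa2, which binds membranes in the presence of calcium, stood at 52.5, 51.6, 53.8, 61.8 and 46.6 CPM in negative and 102, 105 and 123 CPM in positive libraries (1.06 ± 0.10). Plac8 rose from 22.2 ± 5.80 to 50.4 ± 7.55 CPM, the galectin Lgals3 from 27.4 ± 3.42 to 48.5 ± 8.64 CPM and S100a6 from 104 ± 19.1 to 190 ± 40.1 CPM. With the structural marker score as a term, adjusted p by edgeR was 0.325 for Lgals3 and 0.111 for S100a6, while 3 genes of the list still rose.

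Of 37 tested integrin and adhesion genes 6 rose and 2 fell (21.6% called, against 4.52% of all genes), at a median of 0.13. With the marker score as a term edgeR called 0 of the list, the adjusted p of these 8 genes being 0.0696 to 0.989, and Cdh1 is itself one of the epithelial markers in the score. L1cam, a cell adhesion molecule of the immunoglobulin family, rose from 39.4 ± 4.20 to 78.1 ± 12.9 CPM (0.96 ± 0.11), and Itga9 from 2.17 ± 0.87 to 8.25 ± 1.19 CPM (2.08 ± 0.31). Alcam, Cdh1, Cadm1 and Sdc1 rose by 0.84 to 1.27 on the log2 scale. The proteoglycan Sdc4 (278 ± 15.96 to 197 ± 12.1 CPM) and the integrin chain Itgb3 (558 ± 33.5 to 442 ± 16.6 CPM), both abundant, fell by 0.50 ± 0.08 and 0.34 ± 0.09. Genes outside that list that rose were the guidance factors Sema5a (4.38 to 15.2 CPM, 1.74 ± 0.22) and Crmp1 (11.7 to 32.7 CPM, 1.44 ± 0.17), the GTPase regulator Arap3 (1.08 ± 0.13), the actin-binding Cald1 (1.21 ± 0.16), the synaptic adhesion molecule Igsf9b (1.54 ± 0.20) and Wwtr1, the Hippo pathway coactivator TAZ (1.43 ± 0.19). Of these 6 only Crmp1 kept an edgeR adjusted p below the threshold with the structural marker score as a term (0.0414), and those of the other 5 were 0.0656 to 0.179. The immune GTPase Gimap3 (191 ± 26.5 to 350 ± 30.4 CPM, 0.85 ± 0.10) and the axonemal dynein chain Dnah8 (17.7 ± 3.34 to 38.0 ± 4.40 CPM, 1.05 ± 0.12) rose with and without that term.

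Of 19 tested class I MHC genes 3 rose and 0 fell (15.8% called, against 4.52% of all genes), at a median of 0.36. H2-Q7, a nonclassical class I gene, stood at 151, 131, 136, 179 and 150 CPM in negative and 280, 325 and 354 CPM in positive libraries (1.08 ± 0.10, edgeR adjusted p = 4.44e-06). H2-Q6 rose by 0.83 ± 0.12 and H2-T10 by 0.49 ± 0.12, and with the marker score as a term their adjusted p by edgeR was 0.106 and 0.383. These genes have near-identical relatives, so the assignment of reads among them is uncertain. The classical genes H2-K1 (2133 ± 312 and 2824 ± 231 CPM, edgeR adjusted p = 0.0521) and H2-D1 (1983 ± 254 and 2464 ± 71.7 CPM, adjusted p = 0.0930), and B2m, the shared light chain (1637 ± 332 and 1864 ± 124 CPM, adjusted p = 0.356), did not pass. Of 32 tested interferon-stimulated genes edgeR called 0, against 4.52% of all genes, and DESeq2 and limma voom called 0. Their median was 0.05, and 2 had an unadjusted p below 0.05 in edgeR.

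Genes of cell state moved in a few members. Of 48 tested cell cycle genes edgeR called 0, against 4.52% of all genes. Their median was -0.0029, and 3 had an unadjusted p below 0.05 in edgeR, while DESeq2 called 0 and limma voom 1. Of 45 immediate early genes, which rise on activation and on tissue dissociation, 3 rose and 7 fell (22.2% called, against 4.52% of all genes), at a median of -0.10, and with the marker score as a term 0 rose and 1, Spry2, fell. The fallen members were Klf4 (675 ± 45.5 to 427 ± 61.4 CPM), Spry2 (299 ± 28.7 to 198 ± 9.58 CPM), Zfp36, Atf3, Dusp10, Fosb (5398 ± 603 to 4068 ± 208 CPM) and Fosl1, and the risen ones Egr2, Dusp6 and Dusp4, by 0.37 to 0.53 on the log2 scale. Nr4a1, at 5953 ± 851 and 5177 ± 540 CPM, did not pass (edgeR adjusted p = 0.341). Of 37 genes of glycolysis, hypoxia and fuel uptake 0 rose and 4 fell (10.8% called), and with the marker score as a term only Hif1a fell. These were the amino acid transporter Slc7a5 (-0.54 ± 0.10), the polyamine enzyme Odc1 (-0.54 ± 0.10), the hypoxia factor Hif1a (-0.43 ± 0.09) and the hexokinase Hk2 (-0.56 ± 0.12). Of 30 tested lipid mediator and retinoid genes 1 rose and 4 fell (16.7% called), and with the marker score as a term only Rxrg fell. Besides Rxrg, Hilpda and Plin2, proteins of lipid droplets, fell by 0.79 ± 0.12 and 0.47 ± 0.12 and the prostaglandin synthase Ptgs2 by 0.42 ± 0.10, and Alox5, which begins leukotriene synthesis, rose by 0.34 ± 0.08. The proapoptotic gene Bcl2l11 fell from 175 ± 24.7 to 103 ± 14.0 CPM (-0.73 ± 0.10, edgeR adjusted p = 0.000181), while proapoptotic Pmaip1 rose by 0.48 ± 0.09. Of 22 tested members of the Bcl2 family 9.09% were called, against 4.52% of all genes.

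Of 28 tested chemokines and receptors of migration 4 rose and 3 fell (25% called, against 4.52% of all genes), at a median of -0.05, and with the marker score as a term 0 were called. Cxcr4, the receptor for CXCL12, fell from 205 ± 22.7 to 130 ± 8.49 CPM (-0.64 ± 0.09), and the acid-sensing receptor Gpr65 from 157 ± 18.7 to 111 ± 14.8 CPM (-0.47 ± 0.09). Ccr1 rose from 8.47 ± 2.23 to 18.3 ± 2.13 CPM (1.18 ± 0.18), beside Ccl1, Ccl5 and Ccr9. Cxcl3, near Cxcl2 in the genome, stood at 71.3 ± 27.6 and 33.6 ± 16.8 CPM with overlap (edgeR adjusted p = 0.109). Of 53 tested cytokine receptor and STAT pathway genes 3 rose and 0 fell, a share of 5.66% called that is near the 4.52% of all genes. They were the decoy receptor Il1r2 (57.6 ± 14.9 to 112 ± 23.9 CPM, 1.03 ± 0.14), Il10ra (0.40 ± 0.08) and Socs2 (0.41 ± 0.09), with adjusted p by edgeR of 0.0959, 0.360 and 0.909 once the marker score was a term. Of 31 tested genes of the TNF family 3 rose, Cd40lg, Tnfsf8 and Tnfrsf4, and Tnfrsf18 fell (12.9% called), and 0 were called with the marker score as a term.

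The remaining lists moved little or in both directions. Of 29 tested progenitor and fetal genes Cd34, Mecom and Grb10 rose and Sox4, Lef1 and Cd93 fell (20.7% called, against 4.52% of all genes). With the marker score as a term only Sox4 was called, and the adjusted p by edgeR of the 3 risen genes were 0.711 to 0.887. Of 25 tested heat shock and chaperone genes Bag3 and Hspb1 rose and Dnaja1 fell (12% called), and 0 were called with the marker score as a term. Mitochondrially encoded transcripts had a median of -0.21 over 13 tested, of which mt-Co2 and mt-Co3 fell (15.4% called). Ribosomal protein genes had one of -0.06 over 81, of which Rps4l rose (1.23% called).

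**Figure D3:**
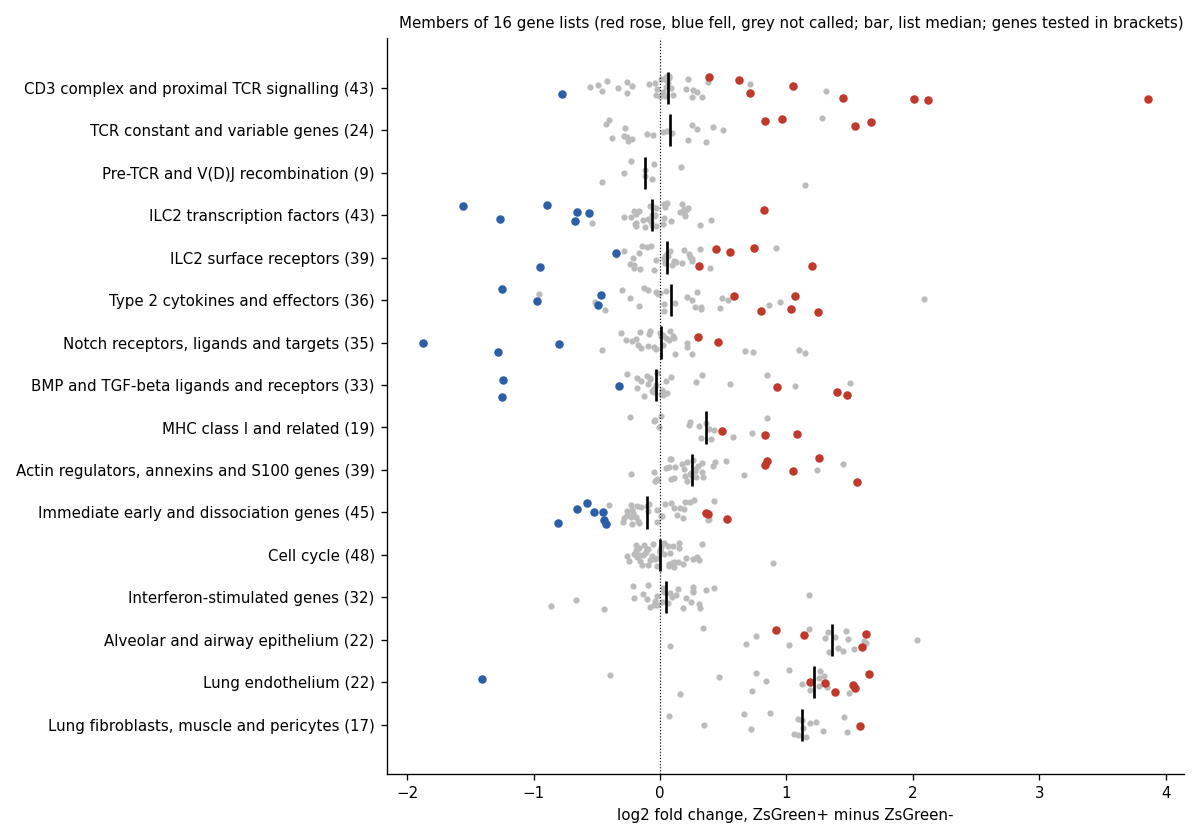
Log2 fold change (horizontal axis, positive minus negative) of each tested member of 16 gene lists (rows, with the number tested in brackets), with risen members in red, fallen in blue, the rest in grey and a bar at the list's median. The 3 rows of lung structural cells are centred between 1.13 and 1.36, and the medians of the 13 other rows lie between -0.12 and 0.36.

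Markers of structural lung cells were mostly higher in positive libraries. A minority of them passed the adjusted edgeR test, and limma voom called more. Of 61 tested epithelial, endothelial and fibroblast markers 59 were higher in positive libraries in the fit, 11 rose and 1 fell, at a median of 1.19 on the log2 scale (0.75 in 2024 and 2.04 in 2025). The share called was 18.2% of the epithelial, 31.8% of the endothelial and 5.88% of the fibroblast, muscle and pericyte markers, against 4.52% of all genes. Limma voom called 18 of 22, 13 of 22 and 12 of 17 of these higher, in the same order. DESeq2 called 9, 8 and 4 higher, and each tool called 1 endothelial marker lower. At an unadjusted p below 0.05 in edgeR, 17, 16 and 6 were higher and 2 endothelial markers lower. Sftpc, a surfactant gene of the alveolar epithelium, stood at 214 ± 89.6 CPM in negative and 524 ± 160 CPM in positive libraries, without overlap, and did not pass (1.34 ± 0.46, edgeR adjusted p = 0.223). Napsa (5.10 to 15.6 CPM, 1.63 ± 0.25) and Cldn18 (5.53 to 15.0 CPM, 1.59 ± 0.30) of alveolar epithelium, Cdh1 and Muc1 of epithelia in general, Cldn5, Tie1, Esam, Ramp2, Cav1 and Sox17 of endothelium and Pdgfrb of pericytes rose, and Ednrb fell by 1.41 ± 0.30. Of 22 tested myeloid markers 1, Lyz1, rose, a share of 4.55% called that is near the 4.52% of all genes. Yet 20 of the 22 were higher in positive libraries in the fit. At an unadjusted p below 0.05 in edgeR 7 were higher and 0 lower, and DESeq2 called 4 higher and limma voom 6. Their median was 0.61, and Lyz2 lay at 64.2 ± 27.1 and 144 ± 46.0 CPM with overlap. With the score of the 68 markers as a term, 19 genes rose and 51 fell, all but 1 of them called before in the same direction. The 323 genes that had risen then differed by a median of 0.61, and the 300 that had fallen by -0.61. Cd3g (2.27), Cd3e (3.68), Scart1 (3.25), Klrg1 (1.28), Enah (1.48), Nyap2 (-2.44), Jag1 (-1.36), Hes1 (-0.82), Bmp2 (-1.40), Sox4 (-1.67), Icos (-1.04) and Gt(ROSA)26Sor (-1.04) were among the 48 named genes still called. Il4 (1.12, edgeR adjusted p = 0.0504), Il13 (0.71, adjusted p = 0.142), Irf4 (0.67, adjusted p = 0.0624), Rbpj (0.43, adjusted p = 0.317), Trdc (1.06, adjusted p = 0.349) and Itga9 (1.37, adjusted p = 0.325) were not. The score was itself higher on average in the positive group, so its part and that of the ZsGreen label cannot be fully told apart.

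**Figure D4:**
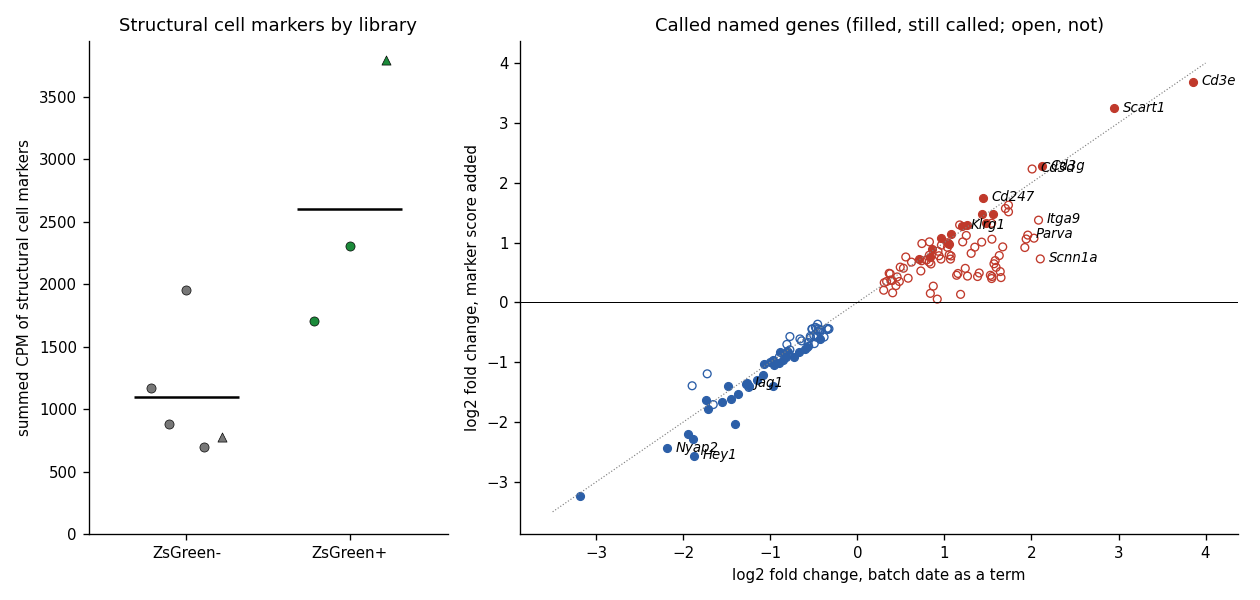
Left, summed CPM of 68 structural cell markers (vertical axis, linear from 0) in each library, negative in grey and positive in green, with a bar at the group mean. Right, log2 fold change of the 151 called genes named by rule with the structural marker score as an added term (vertical axis) against that with batch date alone (horizontal axis), where the 48 filled points were still called. Cd3e, Scart1, Cd3g and Nyap2 lie near the line of equality, and many risen genes lie below it.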

How the data were processed

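Per the labels' protocols, a PicoPure kit served for RNA isolation and an mRNA kit of Watchmaker Genomics for the libraries. The authors deposited whole-number counts for 57186 gene entries in the 8 lung libraries. Build GRCm39 and the tool DESeq2 appear in the submitters' processing notes. Which aligner, counter, annotation and strand setting were used is not given in the sources used here. A second deposited table that also holds the thymic libraries was not used here.

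Genes were kept by filterByExpr with a minimum count of 10, scaled by TMM and tested with edgeR 4.0.16 (glmQLFit, robust, then glmQLFTest, in R 4.3.3) with batch date as a term. Alternatives included DESeq2 1.42.0 and limma 3.58.1. The code was tested on simulated data. Genes were named by rule: the 25 of smallest p and the 10 of largest change per direction that reached 5 CPM or more in 1 group, 5 given markers, and the called members of 39 gene lists. Unnamed gene models, pseudogenes, ribosomal and mitochondrial genes were counted but not named. The members and the lists were chosen with earlier results of these data known. Lists carry no test. A few genes that the rule names are not reported here. Promoter windows are those of RefSeq, GRCm38.p6, which held 105 of 151 called named genes.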

Additional observations from a re-analysis of the deposited data

Results flagged for a closer look

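In 8 of 187 named genes, 1 of the 5 negative libraries stood apart, its gap to the nearest library exceeding 0.71 of the group's range. Chance gives about 1 such gene in 20, so 8 of 187 is no more than chance gives. The negative library of 2025 accounted for 4 of the 8, with Cpa3 at 130 and Ctla4 at 19.4 CPM as the lowest values and Cebpb at 229 and Zfp36 at 1444 CPM as the highest. It is the only negative library of that date, so library and date cannot be told apart. Negative replicate 3, the shallowest library, was highest for Jag1 at 519 CPM, which lies further from the positive libraries, and for Lyz2, a myeloid gene, at 111 CPM. Negative replicate 4 was highest for H2-K1 at 2685 and for H2-D1 at 2429 CPM, and for both it reached into the positive range.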

How the results depend on the processing

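Of 151 called named genes, 45 stayed called under all 18 alternatives and 88 under all but the structural marker term and the replicate block, and 0 changed sign. With no filter on low counts 621 genes rose and 460 fell, and with limma voom 612 rose. In the 2024 libraries alone 145 rose and 153 fell, and with the structural marker score as a term 19 rose and 51 fell. Replicate numbers did not pair the groups: the labels tie no number to an animal, and deviations from the group means of same-numbered libraries correlated at 0.11, -0.22 and -0.14. Each positive library correlated most with a negative library of another number and its own date. These were positive 1 with negative 2 (0.25), positive 2 with negative 3 (0.30) and positive 3 with negative 5 (0.26). A pairing other than by number was not tested. With a replicate block in place of the batch term 130 genes rose and 103 fell. Leaving out 1 library at a time gave 146 to 471 risen and 140 to 343 fallen genes, fewest without negative replicate 5 on both sides. Among genes that did not pass, signs turned for Il5 (-0.18 without a batch term, -0.15 in 2024 alone, -0.26 with the replicate block, -0.28 with the marker term and -0.15 to 0.24 when 1 library was left out), Trac (-0.13 in 2024 alone, and -0.13 to 0.56 when 1 library was left out, negative without negative replicate 5 or positive replicate 3), Id2 (0.063 with the marker term, and -0.10 to 0.030 when 1 library was left out, positive without negative or positive replicate 2), Bcl11b (0.0017) and Thumpd3 (0.0076), the last 2 with the marker term. With 3 positive libraries, genes of few counts were measured least precisely: the median SE was 0.37 on the log2 scale between 1 and 5 CPM and 0.088 at 100 CPM or more.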
